A study of Homo sapiens with 16 samples.

Results

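SW620 cells that carried transduced estrogen receptor beta (ERB, encoded by ESR2) and had been treated with dimethyl sulfoxide (DMSO) for 24 h were compared with SW620 cells of the same transduction and no treatment. Each group held 2 libraries, numbered I and II by the labels, and all 4 were taken from the 16 libraries of the series by their treatment label. SW620 is a line of human colorectal cancer cells from a metastasis, and DMSO is the solvent in which many drugs and hormones are delivered to cultured cells. The series measured poly(A) RNA of SW480 and SW620 cells, each as parental cells, cells with an empty vector and cells with ERB, and of ERB-transduced SW620 cells given DMSO or 10 nM estradiol (E2) for 24 h. The parental, empty vector and untreated ERB libraries together gave 6 untreated SW620 libraries, and the 2 E2 libraries were set beside the DMSO libraries.

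All 4 libraries compared came from ERB-transduced cells, so a response to DMSO in cells without ERB was not measured. The cells were grown in DMEM with serum, per the labels. The labels give no DMSO concentration, no vector or promoter, and no statement on a change of medium at the start of treatment, so DMSO itself and the handling that went with it cannot be told apart. No label says that libraries I and II came from separate cultures, and p-values then measure the spread between these libraries, which may be technical. In bulk RNA, fewer cells of a kind and less RNA per cell cannot be told apart.

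Cells that run short of amino acids, or whose endoplasmic reticulum (ER) is overloaded with unfolded protein, phosphorylate the initiation factor eIF2. General translation then slows while the transcription factor ATF4 is made in larger amounts, and ATF4 with its partner CHOP (DDIT3) switches on genes for amino acid synthesis, amino acid transport and tRNA charging. ATF4 and CHOP pair with C/EBP proteins on a composite DNA element, and ER stress also works through the sensor IRE1 (ERN1), which splices the mRNA of XBP1.

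The composite C/EBP-ATF element was searched as the letters TGATGCAA on both strands, because genes of the amino acid lists rose together with DMSO (below). Promoters were the 250 bases before each gene's start in RefSeq on the build GRCh38.p14, matched by gene symbol. The element was present in 224 of 27305 promoters (0.82%) and in 45 of the 10731 matched promoters of genes tested (0.419%). It was found in 2 of 19 matched promoters of the ATF4 and CHOP list, 2 of 10 of the serine and one-carbon list, 2 of 16 of the cytosolic tRNA synthetases and 0 of 10 of the amino acid transporters. These 6 promoter stretches are shown 5′ to 3′ on the gene's own strand, with the element or its reverse complement in capitals. A match of letters describes the sequence and does not show binding.
CHAC1, chr15:40953236-40953295, plus strand: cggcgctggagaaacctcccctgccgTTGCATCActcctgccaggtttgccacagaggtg
FGF21, chr19:48755444-48755503, plus strand: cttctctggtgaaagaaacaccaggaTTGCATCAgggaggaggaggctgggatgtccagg
MTHFD1L, chr6:150866331-150866390, plus strand: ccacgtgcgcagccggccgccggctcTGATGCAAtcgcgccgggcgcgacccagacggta
GOT1, chr10:99430789-99430848, minus strand: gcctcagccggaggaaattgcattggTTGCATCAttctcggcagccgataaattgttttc
AARS, chr16:70289660-70289719, minus strand: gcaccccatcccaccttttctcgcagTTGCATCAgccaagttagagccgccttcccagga
IARS, chr9:92293698-92293736, minus strand: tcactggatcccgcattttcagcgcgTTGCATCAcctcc

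The 4 libraries held 12743940 to 18740158 read counts. ESR2 had 162 and 187 reads in the untreated ERB libraries and 165 and 100 with DMSO, against 1 read in each empty vector library and 0 in each parental library, as the labels give it. Its log2 fold change with DMSO was −0.59 (adjusted p = 0.058, edgeR), and −0.71 with the offsets described below (adjusted p = 0.0058). Of 16533 genes tested, 8065 (48.8%) passed an adjusted p of 0.05 in edgeR's quasi-likelihood fit of the 10 SW620 libraries. Of these, 3906 (23.6%) were higher with DMSO and 4159 (25.2%) were lower, and the median log2 fold change of all genes was 0.02. Both DMSO libraries lay outside the range of all 6 untreated SW620 libraries for 10940 genes (66.2%), above it for 5718 (34.6%) and below it for 5222 (31.6%). They lay outside both untreated ERB libraries for 13772 (83.3%). The count of called genes depended strongly on which libraries set the spread: with the SW480 libraries in the fit, 1074 of 17464 genes (6.15%) were called, 417 higher (2.39%) and 657 lower (3.76%). That fit is named below as the 16-library fit.

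The change followed the base composition of the transcripts. Across 16216 genes, which share libraries and are not independent replicates, Spearman's rho between the log2 fold change and transcript GC content was −0.61. Over 10 equal groups of genes ordered by GC content, the median log2 fold change ran from 1.12 in the group of lowest GC to −0.89 in that of highest GC, and 56.7% against 2.47% of their genes were called higher. The same rho was −0.01 for untreated ERB cells against empty vector cells. For E2 against untreated ERB cells it was 0.27, of the opposite sign to that with DMSO. With offsets that removed each library's smooth trend with GC content and length, the rho was −0.04 and 7863 genes (47.6%) were called, 4088 higher (24.7%) and 3775 lower (22.8%). Both fits called 5229 genes (31.6%) in the same direction and 34 in opposite directions. Values from the fit with these offsets are given below as "with GC offsets"; all other fold changes are without them. The part of base composition in any single gene's change was not tested.

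**Figure D1:**
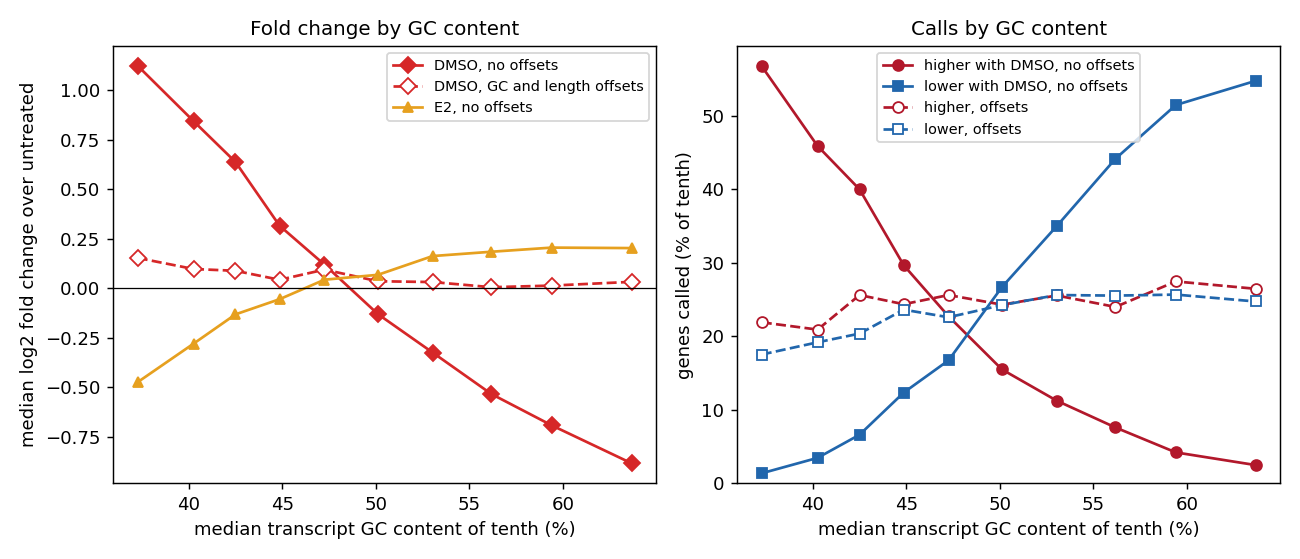
Left, the median log2 fold change over untreated ERB cells (vertical axis) in 10 groups of genes ordered by transcript GC content (horizontal axis, median GC in percent) for DMSO without offsets, DMSO with GC and length offsets, and E2 without offsets. Right, the percentage of each group's genes called higher or lower with DMSO, without and with offsets; without offsets the share called higher falls from 56.7% to 2.47% as GC content rises.

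Both groups expressed gut epithelial markers, and markers of other cell types were near 0. Markers are given as CPM, a gene's reads as a share of all reads of its library, with no TMM scaling. Their log2 fold changes and p-values come from edgeR's TMM-scaled fit, so these differ from the ratios of the CPM shown. The summed level of 8 gut epithelial markers was 11436 and 11230 CPM in untreated cells and 5543 and 4807 CPM with DMSO. Most of that sum came from the keratins KRT8, KRT18 and KRT19, and its members differed in direction. KRT8 went from 5326 and 5234 CPM to 2257 and 1636 CPM and was called lower (log2 fold change −1.81, adjusted p = 0.0010). The adhesion molecule EPCAM was at 170 and 140 CPM and at 241 and 273 CPM. Its TMM-scaled change did not pass the test (0.37, adjusted p = 0.23). CDH1 and CDX2 did not pass the test either (adjusted p = 0.12 and 0.82), but with GC offsets CDH1 was called lower (−0.46) and CDX2 higher (0.49). Leukocyte markers (13 genes, 6 without a read) summed to 4.50 and 5.28 CPM in untreated cells and 1.38 and 1.65 CPM with DMSO. Fibroblast markers (12 genes, 4 without a read) summed to 9.39 to 12.03 and 7.60 to 8.004 CPM, and endothelial markers (9 genes, 4 without a read) to 3.74 to 3.99 and 2.04 to 3.34 CPM.

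DMSO-treated cells showed higher levels of nearly the whole list of ATF4 and CHOP targets. Of its 23 members, 21 rose and 0 fell without GC offsets and 22 rose with them, with median log2 fold changes of 2.60 and 2.68 beside 0.02 and 0.06 for all genes. Counts of this and every later list stand beside 23.6% of all genes called higher and 25.2% lower. With GC offsets these shares were 24.7% and 22.8%, and in the 16-library fit 2.39% and 3.76%. INHBE, a beta subunit of the activin hormones, was at 2.38 and 1.69 CPM in the untreated ERB libraries and at 152 and 141 CPM with DMSO; from here on CPM are scaled by edgeR's TMM factors. It had the smallest p of the comparison (log2 fold change 6.17 ± 0.26 SE, adjusted p = 2.3e-06), a rise of 72.1-fold. DDIT4, an inhibitor of the growth kinase mTORC1, stood at 16.4 and 15.7 CPM without treatment and at 344 and 293 CPM with DMSO. SESN2, another mTORC1 inhibitor that senses leucine, stood at 9.27 and 8.06 CPM and then at 120 and 98.1 CPM. In each of these genes both DMSO libraries lay far above all 6 untreated libraries. They lay above them, by any amount, for 34.6% of all genes tested.

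The transcription factors of the pathway differed in the size of their change. DDIT3, which encodes CHOP, was at 15.0 and 18.4 CPM in untreated cells and at 115 and 139 CPM with DMSO (log2 fold change 2.92 ± 0.20 SE, adjusted p = 3.6e-05). ATF3, a repressor induced by ATF4, rose from 2.98 and 3.78 CPM to 34.9 and 43.3 CPM, and CEBPB, a C/EBP partner of ATF4, from 11.99 and 11.2 CPM to 51.0 and 49.0 CPM. ATF4 mRNA itself, whose protein is controlled mainly at translation, moved less, from 410 and 475 CPM to 621 and 667 CPM (log2 fold change 0.54, adjusted p = 0.017, and 1.16 with GC offsets). ATF5 was at 29.9 and 25.8 CPM and at 30.2 and 24.8 CPM, with overlapping groups (−0.02 without offsets, adjusted p = 0.96); with GC offsets it was called higher by 0.77.

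TRIB3, a pseudokinase that feeds back on ATF4 and CHOP, was at 137 and 132 CPM in untreated cells and 1437 and 1266 CPM with DMSO. CHAC1, which breaks down glutathione and carries the element shown above, stood at 10.9 and 8.45 CPM and then at 74.4 and 45.4 CPM. VEGFA, the angiogenic growth factor that is also on the hypoxia list, rose 11.1-fold from 15.8 and 16.4 CPM to 189 and 168 CPM, and STC2, a secreted glycoprotein of the stress response, from 50.6 and 48.9 CPM to 320 and 282 CPM. FGF21, a stress hormone, had 1 and 0 reads in the untreated libraries and 47 and 17 with DMSO, a ratio of 56.9 with an exact 95% counting interval of 9.85 to 2281. The groups did not overlap for any of these 5 genes, which was also so for 83.3% of all genes tested. The 16-library fit called 9 of the 23 members, all higher. With GC offsets that fit called 20 members higher, beside 2076 of all 17464 genes in it.

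**Figure D2:**
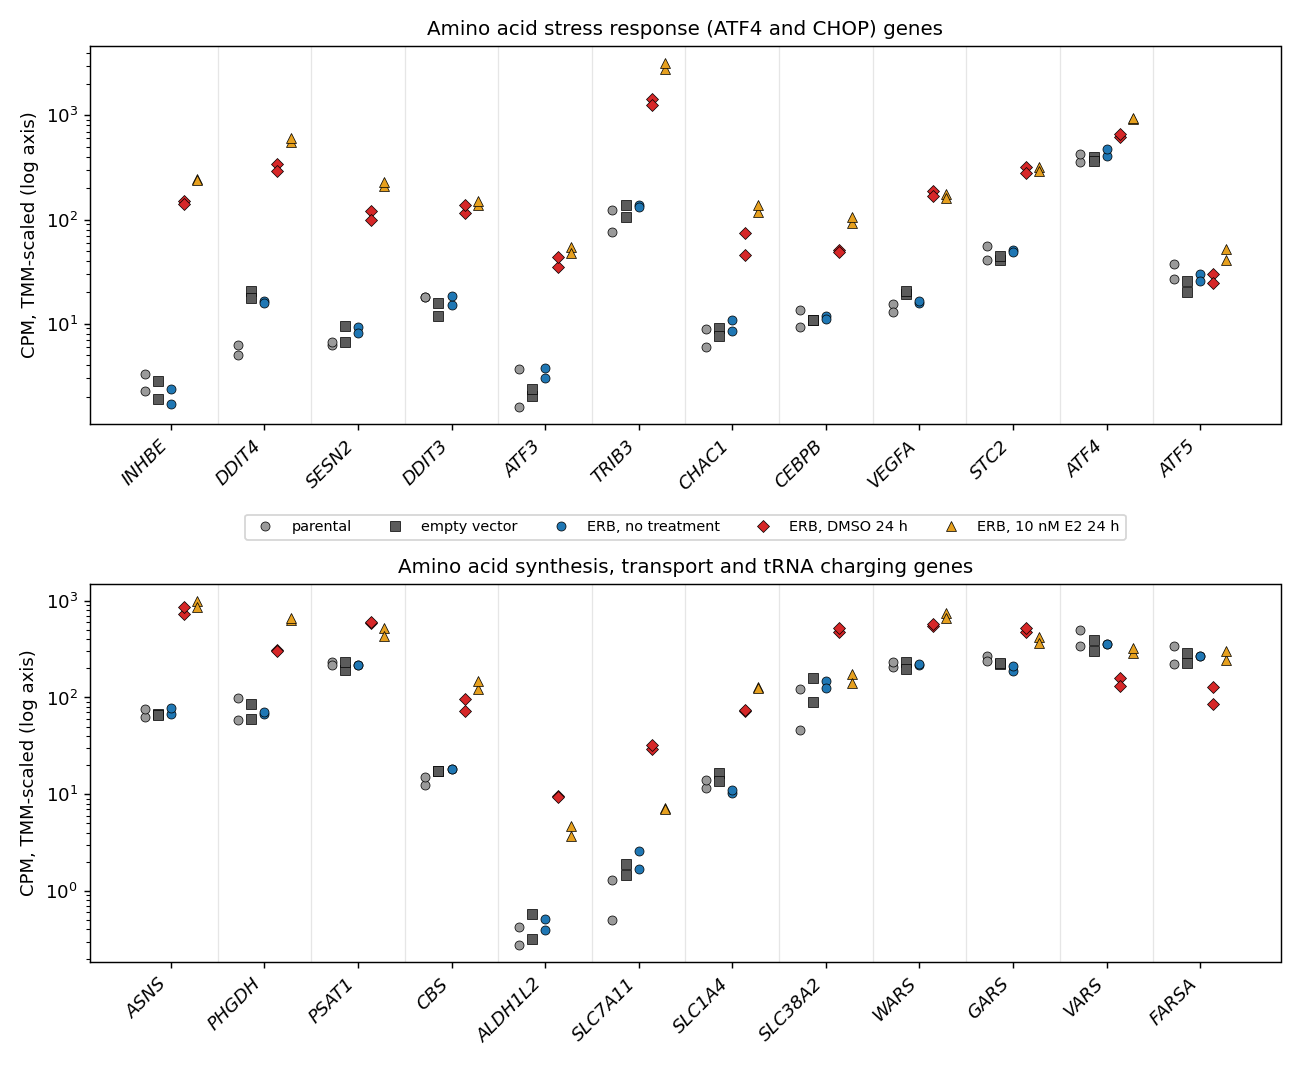
TMM-scaled CPM on a log axis for 12 genes of the ATF4 and CHOP list (top) and 12 genes of amino acid synthesis, transport and tRNA charging (bottom), 1 point per SW620 library, coloured by group. The DMSO libraries (red diamonds) lie above all 6 untreated libraries for INHBE, DDIT4 and ASNS, among the untreated libraries for ATF5, and below them for VARS and FARSA.

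Genes for making amino acids followed the same direction in most members. Of 15 genes of serine, glycine, one-carbon and asparagine synthesis, 9 rose and 3 fell (median log2 fold change 0.86, and 0.94 with GC offsets, where 12 rose and 3 fell). ASNS, which makes asparagine and is a textbook ATF4 target, rose 10.9-fold, from 68.3 and 76.9 CPM to 730 and 854 CPM (adjusted p = 7.9e-06). The first enzyme of serine synthesis, PHGDH, went from 67.8 and 70.5 CPM to 310 and 306 CPM, and the next, PSAT1, from 216 in both libraries to 588 and 605 CPM. CBS, which joins serine to homocysteine, went from 18.1 in both libraries to 96.5 and 72.4 CPM. The mitochondrial folate enzyme ALDH1L2 went from 0.40 and 0.51 CPM to 9.49 and 9.46 CPM. In all 5 genes the DMSO libraries were above every untreated SW620 library, as they were for 34.6% of all genes tested.

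Folate enzymes of this list went in both directions. The mitochondrial enzyme MTHFD1L, whose promoter holds the element, rose by 0.86 on the log2 scale (adjusted p = 0.0016), while cytosolic SHMT1 fell by 1.43 (adjusted p = 0.00034), from 114 and 111 CPM to 42.3 and 41.3 CPM. GOT1, whose promoter also holds it, was at 109 and 127 CPM and at 128 and 137 CPM, and its change of 0.17 did not pass the test (adjusted p = 0.48; 0.43 with GC offsets, adjusted p = 0.013). PYCR1, the last enzyme of proline synthesis, changed by −0.08 without offsets (adjusted p = 0.80) and was called higher by 0.82 with them. In the 16-library fit, 4 members of the list were called higher and 1 lower.

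Amino acid transporters changed unevenly. Of 11 tested, 7 rose and 1 fell, with a median log2 fold change of 0.98 (9 and 0 with GC offsets, median 1.08). SLC1A4, a carrier of alanine, serine and cysteine, went from 10.3 and 10.9 CPM to 73.3 and 73.8 CPM (log2 fold change 2.79, adjusted p = 2.5e-05). SLC7A11, the cystine carrier, went from 2.58 and 1.69 CPM to 29.5 and 32.3 CPM. SLC38A2, a sodium-coupled carrier of small neutral amino acids, went from 149 and 126 CPM to 471 and 523 CPM. The leucine carrier SLC7A5 was at 1028 and 888 CPM and at 957 and 648 CPM and did not pass the test without offsets (−0.26, adjusted p = 0.37), but was called higher by 0.40 with GC offsets. The 16-library fit called 1 of the 11.

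The cytosolic aminoacyl-tRNA synthetases, which charge tRNAs with their amino acids, moved in both directions: 13 of 20 rose and 4 fell, with a median of 0.78 (12 and 7 with GC offsets, median 0.79). WARS, for tryptophan, rose 2.57-fold from 215 and 221 CPM to 543 and 578 CPM, and GARS, for glycine, from 187 and 210 CPM to 471 and 517 CPM. IARS, for isoleucine, rose by 1.54 on the log2 scale and AARS, for alanine, by 0.48 (adjusted p = 0.044); both promoters hold the element. VARS, for valine, fell from 358 and 361 CPM to 159 and 130 CPM, and FARSA, the alpha subunit of the phenylalanine enzyme, from 270 in both libraries to 130 and 85.0 CPM. Of the 20, WARS alone was called in the 16-library fit.

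Genes of ER chaperones and of the IRE1 and XBP1 branch, held in 1 list, rose in part. Of 20 genes, 11 rose and 3 fell (median 0.47; 12 and 4 with GC offsets, median 0.37). ERN1, which encodes the sensor IRE1, went from 9.67 and 10.1 CPM to 76.1 and 68.9 CPM (log2 fold change 2.87 ± 0.21 SE, adjusted p = 3.9e-05). Its target XBP1 went from 124 and 127 CPM to 375 and 395 CPM, and DNAJB9, a co-chaperone and XBP1 target, from 1.85 and 1.80 CPM to 14.9 and 17.1 CPM. The main ER chaperone HSPA5 (BiP) was at 432 and 482 CPM and at 540 and 539 CPM, a difference of 0.24 that did not pass the test (adjusted p = 0.19; −0.04 with GC offsets). Calreticulin, CALR, fell from 1175 and 1189 CPM to 419 and 454 CPM. The 16-library fit called 3 members higher and 1 lower.

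Among genes that reached 5 CPM on average in a group, several membrane and secreted proteins were among the 12 largest rises. TRPV6, a calcium channel of gut epithelium, had 1 and 2 reads in the untreated libraries and 239 and 189 with DMSO, a ratio of 127 with an exact 95% counting interval of 43.1 to 617.1. FAM129A, a stress-responsive regulator of translation, had 1 and 0 reads and then 136 and 100, a ratio of 210 with an interval of 37.3 to 8317. ADM2, a peptide hormone of the adrenomedullin family, went from 1.85 and 2.65 CPM to 72.4 and 48.9 CPM. ULBP1, a ligand of the natural killer receptor NKG2D, went from 0.99 and 1.75 CPM to 30.2 and 27.8 CPM. The netrin receptor UNC5B rose 30.4-fold to 19.6 and 13.99 CPM, the protease inhibitor SLPI 26.4-fold to 14.5 and 15.0 CPM, and the chloride channel BEST1 23.2-fold to 12.2 and 12.3 CPM. MAP1B, a microtubule-binding protein of neurons, went from 4.04 and 5.13 CPM to 149 and 144 CPM; its level in the other untreated SW620 libraries ran from 4.53 to 16.6 CPM. LAMP3, GOLGA4, ALDH1L2 and INHBE complete these 12. All 12, chosen for large fold changes, kept direction and call with GC offsets, beside 64.8% of all called genes.

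Under the same minimum of 5 CPM, the 12 largest falls were led by SFRP5 and DIO3. Genes outside the naming rule fell further. SLC6A12, below that minimum, had a larger fall (−3.90) than DIO3 (−3.84), and the lowest value of all genes tested was −8.91. SFRP5, a secreted antagonist of WNT, went from 164 and 155 CPM to 11.3 and 9.20 CPM (log2 fold change −3.95 ± 0.25 SE, adjusted p = 2.0e-05). DIO3, the enzyme that inactivates thyroid hormone, went from 152 and 128 CPM to 10.1 and 9.39 CPM; it also varied among untreated cells, with 24.6 and 37.1 CPM in parental and 97.8 and 88.2 CPM in empty vector cells. KRT5, a keratin of basal epithelium, went from 13.2 and 13.0 CPM to 1.27 and 1.21 CPM, and CYP17A1, a steroid hydroxylase, from 8.41 and 7.05 CPM to 0.70 and 0.96 CPM. FAM178B, NXPH3, METRN, FGFBP1, S100A3, TEAD2, SARDH and PADI1 complete the set. The naming rule itself required both DMSO libraries to lie below both untreated ERB libraries. All 12 kept their call with GC offsets, beside 64.8% of all called genes. These 12 were chosen for large fold changes.

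Genes of DNA replication fell broadly. Of 37 genes of the S phase list, 0 rose and 29 fell, with a median log2 fold change of −1.32 (0 and 34 with GC offsets, median −1.28). TYMS, which makes thymidylate, went from 245 and 280 CPM to 56.0 and 62.9 CPM (log2 fold change −2.14 ± 0.16 SE, adjusted p = 4.5e-05), 4.42-fold lower. MCM5, a subunit of the replicative helicase, went from 370 and 364 CPM to 65.4 and 51.6 CPM, and RRM2, a subunit of ribonucleotide reductase, from 244 and 250 CPM to 70.8 and 79.3 CPM. The thymidine kinase TK1 went from 483 and 449 CPM to 74.2 and 51.1 CPM. PCNA, the sliding clamp, went from 554 and 651 CPM to 246 and 234 CPM. PRIM1, the primase subunit, was at 50.1 and 55.0 CPM and at 48.7 and 56.4 CPM, with overlapping groups. The 16-library fit called 15 of the 37 lower and 0 higher.

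Genes of mitosis did not move as one. Of 30 on the G2 and mitosis list, 14 fell and 3 rose without GC offsets (median −0.60), and 24 fell and 2 rose with them (median −1.01). AURKB, a kinase of chromosome segregation, went from 242 and 258 CPM to 37.6 and 33.0 CPM (log2 fold change −2.82 ± 0.21 SE, adjusted p = 4.9e-05). KIF20A, a kinesin of cytokinesis, went from 133 and 167 CPM to 30.2 and 28.6 CPM, and the mitotic kinase PLK1 from 334 and 339 CPM to 75.9 and 64.7 CPM. The long transcripts CENPE and ASPM went the other way: CENPE, a kinetochore motor, stood at 0.20 and 0.28 CPM and then at 1.36 and 2.43 CPM, and ASPM, a spindle protein, at 1.52 and 1.69 CPM and then at 7.23 and 6.64 CPM. HMMR was the third of those called higher. Of the 30, 9 were called lower and 0 higher in the 16-library fit. CDKN2B, an inhibitor of the G1 kinases, rose 6.06-fold from 5.96 and 5.92 CPM to 36.3 and 35.8 CPM.

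**Figure D3:**
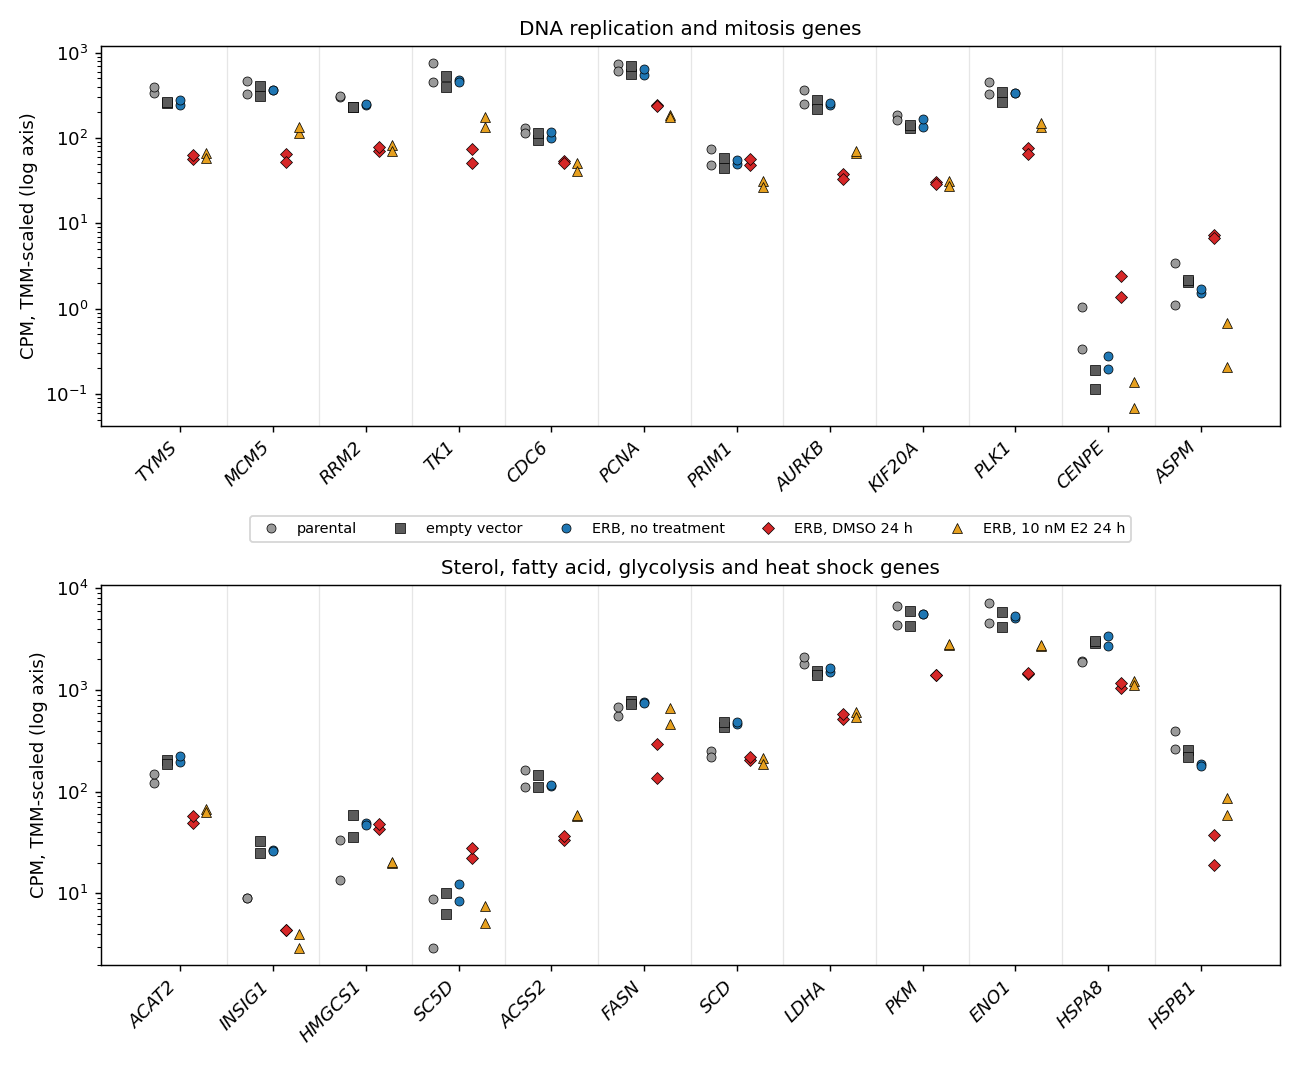
TMM-scaled CPM on a log axis for 12 genes of replication and mitosis (top) and 12 genes of sterol and fatty acid synthesis, glycolysis and heat shock (bottom), 1 point per SW620 library, coloured by group. The DMSO libraries (red diamonds) lie below the untreated libraries for TYMS, AURKB and ACAT2, among them for PRIM1 and HMGCS1, and above them for CENPE and ASPM.

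Most sterol and fatty acid genes fell. Of 25 cholesterol genes, 17 fell and 1 rose (median −1.24; 21 and 1 with GC offsets, median −1.01). ACAT2, the thiolase that joins acetyl-CoA units at the start of the pathway, went from 195 and 224 CPM to 49.6 and 58.3 CPM (log2 fold change −1.96 ± 0.17 SE, adjusted p = 8.9e-05). INSIG1, the sterol-induced retention factor of SREBP, went from 26.8 and 26.2 CPM to 4.32 and 4.34 CPM. HMGCS1, the synthase that acts after ACAT2, was at 49.5 and 47.5 CPM and at 43.4 and 48.2 CPM, with overlapping groups; its change was −0.08 without offsets (adjusted p = 0.86), and it was called lower with them (−0.90). SC5D was the member that rose, by 1.27 (adjusted p = 0.034), and it was not called with GC offsets (0.44). In parental cells ACAT2 and INSIG1 were also below their level in the vector and ERB cells; INSIG1 stood there at 8.98 and 8.97 CPM. Of 12 fatty acid genes, 8 fell and 2 rose (median −0.80; 10 and 0 with GC offsets, median −0.70). FASN, the fatty acid synthase, went from 771 and 739 CPM to 296 and 137 CPM, and the desaturase SCD from 461 and 480 CPM to 207 and 221 CPM. SCD was at 250 and 220 CPM in parental cells, near its DMSO level. With parental cells as the control, 4 fatty acid genes were called lower and 3 higher (median −0.15), and 13 cholesterol genes lower and 4 higher (median −0.67). That control gave 4373 genes called lower and 4363 higher among all 16533 tested. In the 16-library fit, 9 cholesterol genes and 2 fatty acid genes were called, all lower.

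Of 25 genes of the hypoxia response and glycolysis, 15 fell and 5 rose (median −1.01; 14 and 6 with GC offsets, median −0.70). LDHA, which turns pyruvate into lactate, went from 1514 and 1662 CPM to 514 and 584 CPM. Pyruvate kinase PKM went from 5618 and 5653 CPM to 1419 and 1416 CPM, and enolase ENO1 from 5078 and 5301 CPM to 1454 and 1479 CPM. VEGFA, given above, was among the 5 that rose. In the 16-library fit, 8 were called lower and 2 higher. Both DMSO libraries were below the untreated ERB libraries for LDHA, PKM and ENO1, as they were for 40.6% of all genes tested.

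Heat shock genes, which answer unfolded protein in the cytosol, were not called higher. Of 14, 0 rose and 8 fell (median −0.79; 0 and 11 with GC offsets, median −0.75). HSPA8, the constitutive HSP70, went from 2681 and 3416 CPM to 1050 and 1176 CPM, and HSPB1 from 187 and 180 CPM to 37.9 and 19.0 CPM. HSPA1A went from 33.1 and 31.1 CPM to 8.45 and 5.30 CPM, but it is nearly identical to HSPA1B and its reads may have been split between the pair. Of 18 antioxidant genes of NRF2, 1 rose and 8 fell (median −0.51; 3 and 10 with GC offsets, median −0.55), among the latter the pentose phosphate enzyme TKT, at −1.98. Among 9 metallothionein and zinc genes, 5 rose and 1 fell (median 0.80; 5 and 2 with GC offsets, median 0.47), and the metallothioneins are near-identical copies whose reads may be shared.

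Nuclear genes of protein synthesis and respiration fell in part. Of 44 cytosolic ribosomal protein genes, 21 fell and 0 rose (median −0.48; 21 and 3 with GC offsets, median −0.36); the 16-library fit called 0. Of 35 nuclear genes of the respiratory chain, 23 fell and 2 rose (median −0.81; 23 and 0 with GC offsets, median −0.57), and 1 was called there. All 13 mitochondrially encoded mRNAs had fold changes below 0, from −1.35 to −0.21, but 4 of 13 passed the test, a share near the 25.2% of all genes called lower. NDUFA2, a subunit of complex I, went from 109 in both libraries to 36.1 and 32.1 CPM. RPL24 went from 233 and 294 CPM to 131 and 153 CPM.

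Among genes of colon cancer cells, WNT targets fell in part. Of 21, 9 fell and 1 rose (median −0.55; 12 and 3 with GC offsets, median −0.50). EPHB2, a receptor of the crypt base, went from 409 and 418 CPM to 93.3 and 81.3 CPM (log2 fold change −2.24 ± 0.18 SE, adjusted p = 6.3e-05). MYC was the member that rose, from 289 and 310 CPM to 624 and 557 CPM. TNC, an extracellular matrix protein, went from 412 and 404 CPM to 89.9 and 85.2 CPM. S100A4, a calcium-binding protein tied to metastasis, went from 1896 and 2094 CPM to 237 and 306 CPM. Both are on the mesenchymal transition list, where 6 of 15 fell and 3 rose (median −0.39, and −0.69 with GC offsets, where 6 fell and 3 rose). Of 17 clock genes, 9 rose and 3 fell (median 0.95, and 0.44 with GC offsets, where 7 rose and 2 fell). NR1D2, a clock repressor, rose by 2.01 on the log2 scale.

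Several lists had no stable direction. The medians of immediate early genes (28 tested, −0.30 and 0.15 with GC offsets), of steroid and nuclear receptors (25 tested, −0.34 and 0.28), of clustered histone genes (15 tested, −0.75 and 0.11) and of neuronal genes (11 tested, −0.28 and 0.49) changed sign with the offsets. The Notch list (13 tested) kept its sign but shrank from −1.34 to −0.39, and its median transcript GC content was 62.7% beside 48.6% for all genes. Classical estrogen response genes were divided, with 7 higher and 7 lower of 21 and a median of −0.14 (7 and 5 with GC offsets, median −0.06). Of all genes tested, 23.6% were called higher and 25.2% lower, and 24.7% and 22.8% with GC offsets. Histone genes are near-identical copies whose reads may have been shared.

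**Figure D4:**
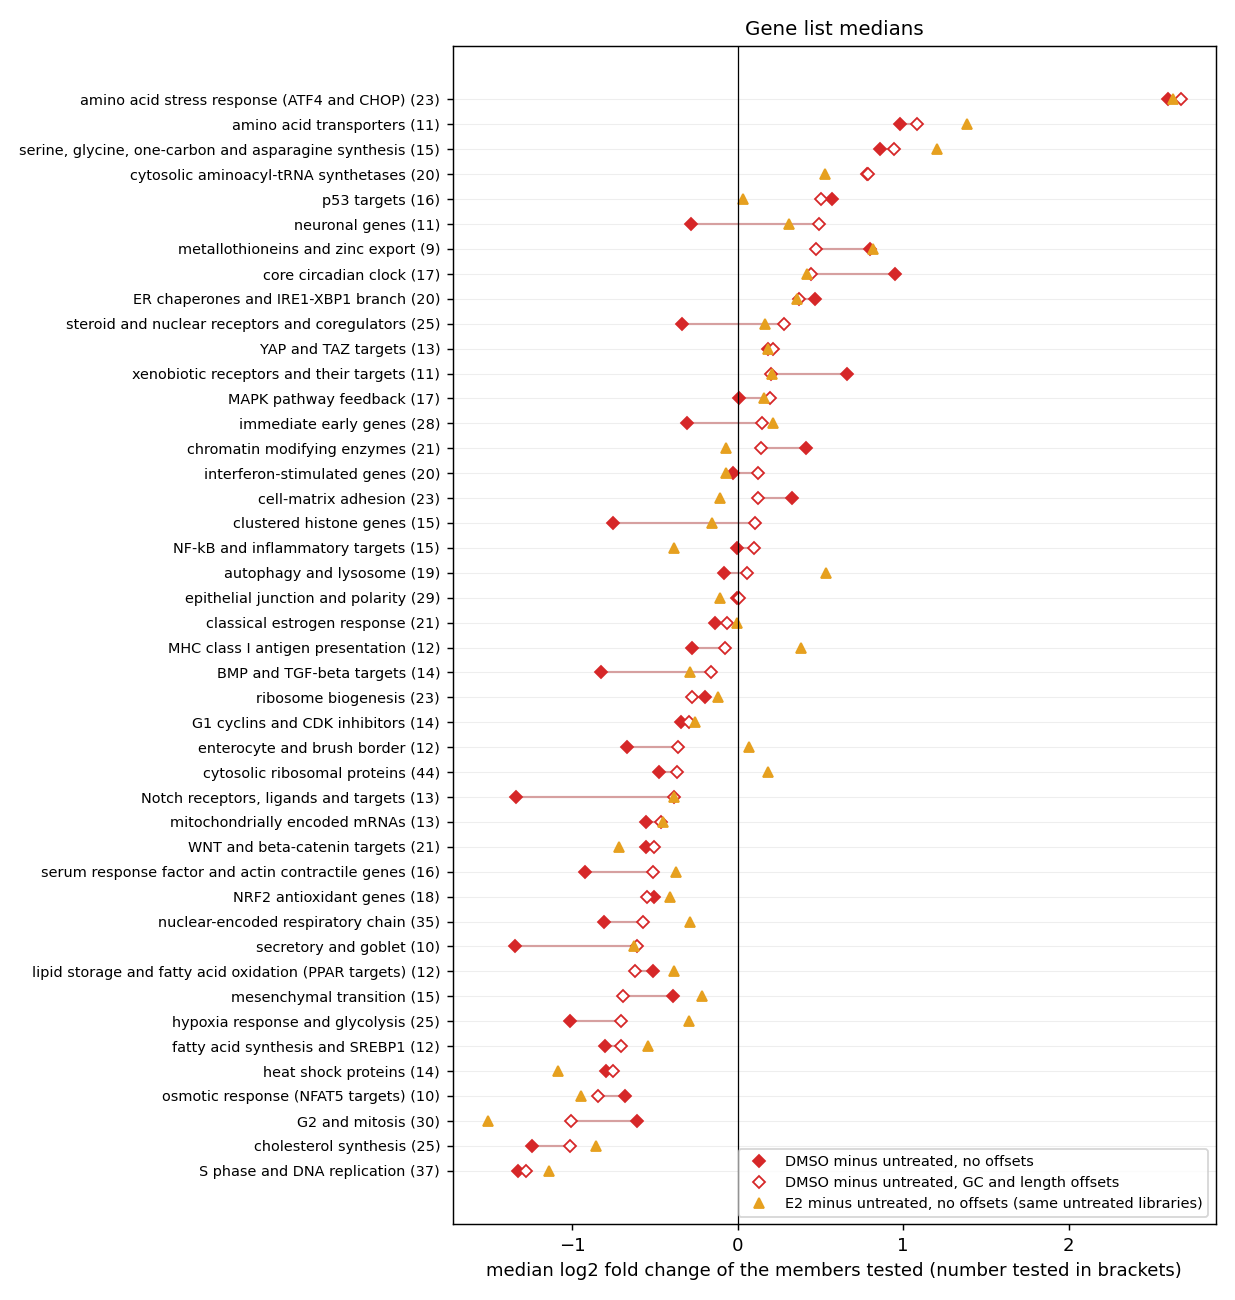
Median log2 fold change over untreated ERB cells (horizontal axis) for the gene lists with 9 or more members tested (vertical axis, number tested in brackets), for DMSO without offsets (filled diamonds), DMSO with GC and length offsets (open diamonds) and E2 without offsets (triangles, same untreated libraries). The ATF4 and CHOP list stands highest at 2.60 and the S phase list lowest among the DMSO medians with offsets at −1.28; lines join the DMSO medians of a list.

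The E2 libraries, given 10 nM E2 for 24 h, were set beside the DMSO libraries against the same untreated libraries, so the 2 comparisons are not independent and no overlap between them is given as a result. The labels do not say in what solvent E2 was given. Without offsets 3455 genes (20.9%) were called in E2 against untreated cells, 1880 higher (11.4%) and 1575 lower (9.53%), and 6405 (38.7%) with GC offsets. The ATF4 and CHOP list had 22 of 23 members called higher and a median of 2.63, and the S phase list 33 of 37 called lower and a median of −1.14. INHBE stood at 246 and 241 CPM in the E2 libraries and DDIT4 at 551 and 610 CPM, in both genes above the DMSO libraries (E2 against DMSO, log2 0.73 with adjusted p = 0.013 and 0.86 with adjusted p = 0.0069). With GC offsets neither difference passed the test (0.16 for INHBE, adjusted p = 0.33, and −0.08 for DDIT4, adjusted p = 0.56). ASNS at 991 and 858 CPM, VEGFA at 176 and 159 CPM and TYMS at 65.8 and 58.2 CPM did not pass the test between E2 and DMSO (log2 differences of 0.22, −0.09 and 0.06); with GC offsets VEGFA was called lower with E2 (−0.41, adjusted p = 0.023).

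SLC7A11 was at 7.15 and 7.04 CPM and SLC38A2 at 175 and 141 CPM with E2, below both DMSO libraries (E2 against DMSO, −2.12 and −1.65). Most of either difference was absent with GC offsets, where neither passed the test (−0.34 for SLC7A11, adjusted p = 0.14, and −0.25 for SLC38A2, adjusted p = 0.18). CENPE was at 0.07 and 0.14 CPM and ASPM at 0.68 and 0.21 CPM with E2, below the untreated ERB libraries rather than above them. In the E2 libraries 3 reads equal 0.199 and 0.197 CPM before TMM scaling. The levels of CENPE, and of ASPM in the second E2 library, thus rest on few reads. No test of E2 against untreated cells is given for either gene. Both genes were called lower with E2 than with DMSO also with GC offsets (−2.34, adjusted p = 0.036, and −2.31, adjusted p = 0.017). In E2 against DMSO, 8759 genes (53%) were called without offsets and 2873 (17.4%) with GC offsets, and Spearman's rho with GC content was 0.84 without offsets. That comparison called 0 genes when the second E2 library was left out, where 6874 had an unadjusted p under 0.05, and 0 in the 16-library fit, where 3469 did. DESeq2 called 8310 genes in it and limma-voom 8902.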

How the data were processed

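Per the labels' protocols, a stranded mRNA kit was used to make the libraries. Raw read counts and FPKM values of 16 libraries were deposited, and 0 columns belonged to other samples. The tools were Cufflinks 2.1.1, HTSeq 0.6.1, Picard 1.29, SAMtools and TopHat2 2.0.4 on the build GRCh37, per the submitters' processing notes; the sources used here do not give whether strand was used in counting.

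The deposited counts of the 10 SW620 libraries (5 groups of 2) were filtered with filterByExpr, which left 16533 genes, scaled by TMM (factors 1.23 for both DMSO libraries, 0.95 and 0.96 for the untreated ERB libraries) and fitted with edgeR 4.0.16 in R 4.3.3 (glmQLFit, glmQLFTest, two-sided). The call threshold was an adjusted p (Benjamini-Hochberg) of 0.05 over all genes tested. SW480 libraries stayed out of the fit because the comparison lies within SW620. Earlier results of these data had also shown that they spread far more between replicates, so this choice was not blind to its effect. The fit of all 16 libraries is an alternative. SEs derive from the F statistic. The offsets were natural splines with 5 degrees of freedom each on GC content and length of the longest GENCODE v29 transcript, known for 98.1% of the genes tested. CPM are TMM-scaled except those of cell type markers; 3 reads equal 0.160 to 0.235 CPM of a library in the groups compared. The FPKM values, deposited by the authors and scaled by length and depth, entered as an alternative, with limma 3.58.1 on log2(FPKM + 1) or log2(FPKM + 0.1). The fit was tested on simulated data.

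The members, the 47 gene lists (954 genes) and the tests were chosen with earlier results of these data known, so list counts are not independent evidence. Genes were named by a rule: ESR2; the 12 largest fold changes in each direction among called genes that reached 5 CPM on average in one group and whose groups did not overlap; and from each list the 3 called genes of smallest p, or the 2 most abundant where it had none. Further members of the amino acid, ER, cell cycle, sterol, glycolysis, ribosomal and clock lists, and the snoRNA host genes, were named after their values were seen. Other settings (DESeq2 1.42.0, limma-voom, other scaling, filters, controls and left-out libraries) are given in the closing section. Counting intervals are exact Clopper-Pearson intervals at 95% and cover counting error only. Promoter sequences are from RefSeq on GRCh38.p14, another build than that of the files, so they were matched by symbol and no gene coordinates from the files are given.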

Additional observations from a re-analysis of the deposited data

How the results depend on the processing

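Depth (12743940 to 18740158 reads) and 2 libraries a group limit these counts. Against 8065 called genes (3906 higher, 4159 lower), the fit of all 16 libraries called 1074 (417 and 657), and 3792 (2076 and 1716) with GC offsets, an alternative chosen after seeing the data; 1069 of the 1074 were shared in the same direction. FPKM with log2(FPKM + 1), log2(FPKM + 0.1) and no filter called 6143, 5635 and 6040 genes, of which 2383, 2335 and 2180 lower; the first 2 moved the median of all genes to 0.22 and 0.25. DESeq2 called 7633, limma-voom 8319, RLE scaling 8082, the 4 libraries alone 10285, the 1.2-fold minimum 6887, and the empty vector, parental and 6 untreated libraries as controls 7914, 8736 and 10132. Leaving out 1 library gave 4197 to 9841 calls (1637 to 5567 higher, 1724 to 4357 lower): 4329 and 4197 without untreated ERB library I or II, and 4229 without DMSO library II. E2 against untreated gave 302 calls with 16 libraries, 7259 with 4, 6405 with GC offsets, and 1093 to 1322 with 1 library left out. E2 against DMSO gave 0, 2873 with GC offsets, and 0 to 6390. Of 151 genes named by the rule, 147 kept direction and call with GC offsets and 90 with 16 libraries. The other 61 there kept their direction only. Of all 8065 called genes, 64.8% kept both with GC offsets and 13.3% with 16 libraries. The rule chose genes by fold change and p in the main fit, so they do not stand for all called genes.

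The labels do not say whether numbers I and II pair the libraries across groups. The correlation of I minus II between DMSO and untreated cells was 0.07. This value cannot decide the question, since a pairing need not shift the same genes in both groups. The replicate block called 7041 genes, and 7233 with GC offsets.

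ESR2 (−0.59) passed the threshold with limma-voom (−0.59), 4 libraries (−0.58), GC offsets (−0.71; −0.72 with the block) and without parental library I, and it ran from −0.69 to −0.36 with 1 library left out; against the empty vector, parental and 6 untreated controls, which lack or mostly lack it, it was 6.70, 9.81 and 5.31. HSPA8 was 4.52, 6.18 and 4.52 in the 3 FPKM fits, where 1 untreated library is listed at 0 against 60607 reads; TUBB2B, which has close copies, was −0.11, −0.12 and −0.11, and NLRC5 0.45, 0.61 and 0.45. TNFAIP2 was 0.12 and HMGCS1 0.97 with the parental control. With GC offsets, with the block added and in 16 libraries, ATF5 was 0.77, 0.77 and 0.79, PYCR1 0.82, 0.82 and 0.84, SNHG9 0.55, 0.57 and 0.65; SLC7A5 was 0.40 in the fits of 10. List medians that changed sign were immediate early genes (0.0090, 0.0053 and 0.080 on FPKM, 0.15, 0.15 and 0.17 with offsets, 0.11 against parental), nuclear receptors (0.16 on unfiltered FPKM, 0.28, 0.27 and 0.30 with offsets, 0.026 without DMSO library II and −0.46 without DMSO library I), histones (0.11, 0.11 and 0.14 with offsets), neuronal genes (0.051 on unfiltered FPKM, 0.49, 0.49 and 0.50 with offsets), MHC class I (0.076, 0.078 and 0.076 in the 3 FPKM fits) and G1 cyclins and inhibitors (0.32 against parental). The cause of these changes was not tested.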

Other observations

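Host genes of small nucleolar RNAs, chosen by their names (SNHG genes and GAS5) after the values were seen, were called higher with DMSO in 7 of 14 cases, beside 23.6% of all genes. These transcripts carry snoRNAs, guides of RNA modification, in their introns. Of the other members, 1 was called lower and 6 did not pass the test, and the 14 had a median log2 fold change of 0.63 (9 and 1 with GC offsets, median 1.15), beside 0.02 for all genes. SNHG1 rose from a mean of 271 CPM in untreated ERB cells to 1616 CPM (log2 fold change 2.58 ± 0.21 SE, adjusted p = 6.5e-05, edgeR), GAS5 from 182 to 605 CPM, SNHG8 from 36.6 to 139 CPM, SNHG12 from 32.1 to 142 CPM and SNHG17 from 69.9 to 161 CPM. SNHG9 was the gene called lower, with a log2 fold change of −0.99, and it had 0.55 with GC offsets (adjusted p = 0.24). With E2 the median of the 14 was 1.37, against the same untreated libraries.

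Antisense genes and processed transcripts took a larger share of reads with DMSO, and pseudogenes a smaller one. Antisense genes took 0.247% of reads in both untreated ERB libraries and 0.490 and 0.532% with DMSO, and processed transcripts 0.341 and 0.361% against 0.766 and 0.864%. In the other untreated SW620 libraries antisense genes took 0.221 to 0.255%. Of 641 antisense genes tested, 162 were called higher, a share near the 23.6% of all genes, and 76 lower, with a median of 0.27 (210 and 37 with GC offsets, median 0.59). The sources used here do not give whether strand was used in counting, so reads of a gene and of its antisense partner cannot be told apart. Pseudogenes took 4.02 and 4.20% of reads in untreated ERB cells and 3.54 and 3.78% with DMSO. The 2540 tested had a median of −0.24, and 0.05 with GC offsets.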
